A study of Mus musculus with 2 samples.

Results

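The genes described here are the semaphorins, plexins, neuropilins, ephrins and Eph receptors that were detected in cells sorted from the basolateral amygdala of mice. They were chosen by name and by measured counts: every gene with the prefix Sema, Plxn, Efna, Efnb, Epha or Ephb, together with Nrp1 and Nrp2, that had at least 20 UMIs (unique molecules) summed over both libraries. Of 25120 genes with a column in either library, 55 carried such a name and 50 passed the count minimum. The members are 19 of 20 semaphorins, all 9 plexins, both neuropilins, all 5 ephrin-A and all 3 ephrin-B ligands, 6 of 9 EphA and all 5 EphB receptors, and Plxna4os1, an antisense RNA of Plxna4. Just inside the minimum were Efna5 with 21 UMIs, Epha10 with 24, Sema3a with 28 and Efna4 with 30. Just outside were Sema3f with 10, Epha1 with 9, Epha6 and Epha8 with 3 each, and the antisense RNA Plxna4os2 with 2.

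The study sorted viable tdTomato-positive cells from adult C57BL/6 mice and titled the series as a profile of cells expressing KLB, the co-receptor through which the hormone FGF21 acts on FGF receptors. The mice received vehicle or 1 mg/kg of FGF21 once per day for 3 days, and tissue of 3 mice was pooled per treatment, so each treatment is 1 library without replicates. Every interval below is a 95% interval for counting error only, and no test between treatments was possible. The labels give neither the driver of tdTomato nor the sex of the mice.

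Semaphorins are secreted or membrane-bound ligands that act mainly through plexins, with neuropilins as co-receptors for most of the secreted class 3 semaphorins. Ephrins are membrane-bound ligands of the Eph receptor tyrosine kinases and signal into both touching cells: ephrin-A ligands sit on a lipid anchor and mostly bind EphA receptors, while ephrin-B ligands span the membrane and mostly bind EphB receptors. Both systems are best known for steering growing axons, and in the adult brain they are also found in glia, microglia and vessels.

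The filters left 2337 vehicle cells (median depth 4232 UMIs) and 1935 FGF21 cells (median depth 6838 UMIs), and 12 cell barcodes occurred in both libraries. Klb itself had 3 UMIs among vehicle cells and 0 among the 1935 FGF21 cells, which allows a share of up to 0.155% of cells with a UMI when 3 counts are taken as the limit, while the tdTomato column had a UMI in 22.3% of the vehicle cells (20.7% to 24.1%) and 34.9% of the FGF21 cells (32.8% to 37.1%). Cells were grouped by clustering without the member genes among the variable genes, and clusters were named from marker lists, hence "-like". The 8 glial, immune and vascular classes described here each had at least 8 of their markers detected. They held, vehicle first, 1408 and 886 microglia-like, 375 and 577 oligodendrocyte precursor-like, 33 and 38 committed oligodendrocyte precursor-like, 41 and 82 mature oligodendrocyte-like, 99 and 192 astrocyte-like, 181 and 40 pericyte-like, 33 and 16 endothelial-like, and 49 and 23 border macrophage-like cells. The libraries shared few microglia-like and precursor-like clusters: 1399 vehicle but 25 FGF21 microglia-like cells fell into 1 cluster and 9 against 861 into another, and the precursor-like clusters held 353 against 69 and 22 against 508 cells. A background level was estimated for each library. Markers of a cell type, read in classes foreign to it, stood at a median of 26.4% (range 18.1% to 40.7%) of their library average for vehicle and 32.6% (range 23.8% to 48.2%) for FGF21, and that share of each gene's library level is called background below.

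Stretches upstream of 4 members are shown because their transcripts were high in different classes: Plxnb3 in committed oligodendrocyte precursor-like cells, Sema3d in committed and precursor-like cells alike, Ephb1 in mature oligodendrocyte-like cells and Plxnb2 in microglia-like cells. Each ends just before or upstream of the annotated gene and is read in the direction of transcription. Capitals mark the words ACAAAG and ACAATG, or their reverse complements, which are core words of SOX factors such as SOX10 of the oligodendrocyte lineage. Sequences are from RefSeq, build GRCm38.p6. Plxnb3 lies at chrX:73756853-73757089 (plus strand), Sema3d at chr5:12382916-12383165 (plus), Ephb1 at chr9:102354694-102354943 (minus) and Plxnb2 at chr15:89180789-89181038 (minus).
Plxnb3: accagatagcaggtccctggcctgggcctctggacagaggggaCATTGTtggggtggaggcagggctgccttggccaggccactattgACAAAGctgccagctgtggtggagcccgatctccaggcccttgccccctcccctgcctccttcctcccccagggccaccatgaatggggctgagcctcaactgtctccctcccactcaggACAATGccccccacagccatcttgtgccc
Sema3d: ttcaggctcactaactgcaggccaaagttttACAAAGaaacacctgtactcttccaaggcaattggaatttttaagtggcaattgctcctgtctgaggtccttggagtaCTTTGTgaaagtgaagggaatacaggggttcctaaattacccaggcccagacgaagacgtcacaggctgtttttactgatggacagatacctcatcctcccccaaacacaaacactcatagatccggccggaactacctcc
Ephb1: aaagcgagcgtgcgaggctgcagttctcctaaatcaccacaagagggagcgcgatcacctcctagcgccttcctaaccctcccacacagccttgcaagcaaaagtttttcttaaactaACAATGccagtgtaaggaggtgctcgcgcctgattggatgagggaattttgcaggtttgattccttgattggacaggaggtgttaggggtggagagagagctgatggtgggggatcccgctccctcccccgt
Plxnb2: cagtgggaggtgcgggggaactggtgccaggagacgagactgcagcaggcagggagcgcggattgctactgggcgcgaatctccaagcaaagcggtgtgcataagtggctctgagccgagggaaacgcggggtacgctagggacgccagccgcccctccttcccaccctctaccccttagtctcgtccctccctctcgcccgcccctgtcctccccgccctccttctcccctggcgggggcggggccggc

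The Plxnb3 stretch held 3 of these words, that of Sema3d 2, that of Ephb1 1 and that of Plxnb2 0. They are picked examples and do not stand for the lineage. Efnb3 and Sema5a, with higher levels in lineage-like classes, are not shown. Over all members, windows were found for 44 of 50, and 11 of their 58 windows of 250 bases held a SOX word (19.0%), against 25.2% of all 32851 windows. Among members led by oligodendrocyte lineage-like classes it was 6 of 23 windows (26.1%), close to the share of all windows. The word GAGGAAGT of PU.1, a factor of microglia and macrophages, was in 0 of the 58 windows against 2.44% of all windows. Both strands were searched, and a match describes letters in the window, not a bound site.

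Levels are UMIs of a gene per 1000000 UMIs of a class (CPM). A UMI stands for 1 captured transcript, so CPM values are not divided by gene length. The class with the highest mean CPM over both libraries, among classes with at least 10 UMIs of the gene, is called its leading class. Oligodendrocyte lineage-like classes led for 23 members, immune classes for 12, vascular classes for 11 and astrocyte-like cells for 4. By role, they led for 8 of 19 semaphorins, 3 of 9 plexins, 5 of 8 ephrins and 7 of 11 Eph receptors. The leading class was the same in both libraries for 39 of 50 members, and for 16 its interval lay above that of the next class in both. The summed level of the members was highest in endothelial-like cells (3590 CPM for vehicle and 3685 CPM for FGF21) and mature oligodendrocyte-like cells (3121 and 3418 CPM), and lower in microglia-like cells (1659 and 1832 CPM) and border macrophage-like cells (1458 and 1658 CPM). These counts describe a choice by level and carry no test. They were not made over all genes, so whether other genes are led in the same way was not tested. The oligodendrocyte lineage-like group holds 3 of the 8 classes. The minimum of 10 UMIs is harder to reach in classes of few cells, so a higher level there may not lead.

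**Figure D1:**
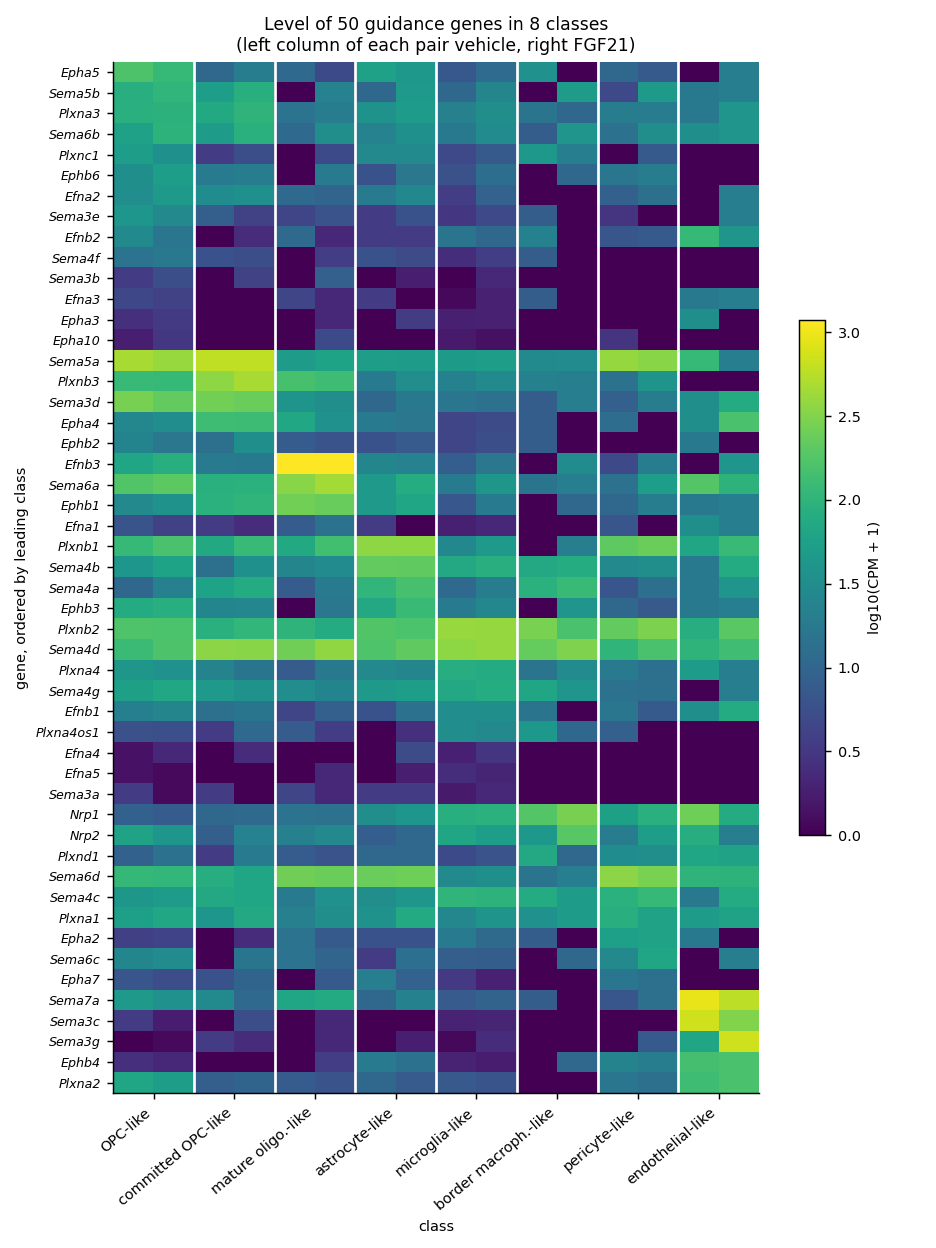
Heat map of the level of each of the 50 members (rows, ordered by leading class) in 8 classes (column pairs, vehicle left and FGF21 right), as log10(CPM + 1). Efnb3 in mature oligodendrocyte-like cells (1191 and 1178 CPM) is the brightest pair.

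Among the semaphorins, Sema4d had the most UMIs over both libraries (6858), followed by Sema5a (5027) and Sema6a (2593). Sema4d, a transmembrane ligand of B-class plexins, was broadly spread. It measured 354 CPM (vehicle) and 382 CPM (FGF21) in microglia-like cells, 348 and 339 CPM in committed oligodendrocyte precursor-like cells, and 259 and 368 CPM in mature oligodendrocyte-like cells. The lead of the microglia-like class over the committed class, 1.07-fold, was within the counting intervals. A UMI of Sema4d was found in 69.0% (66.5% to 71.4%) of vehicle and 83.3% (80.7% to 85.7%) of FGF21 microglia-like cells, and in 47.4% and 49.3% when cells were thinned to 2000 UMIs. Cells below 2000 UMIs were left out of all thinned shares.

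Sema5a, a transmembrane semaphorin with thrombospondin repeats, marked the early lineage and pericyte-like cells. It stood at 608 and 609 CPM in committed oligodendrocyte precursor-like cells, at 469 and 403 CPM in precursor-like cells, and at 383 and 338 CPM in pericyte-like cells. In mature oligodendrocyte-like cells it was at 48.3 and 60.4 CPM, lower than in the precursor-like cells of either library. The expected background of Sema5a in mature cells was above its whole level. Sema3d, a secreted class 3 semaphorin, was likewise low in mature cells, with 276 and 215 CPM in precursor-like, 260 and 238 CPM in committed and 38.0 and 32.1 CPM in mature cells. Background made up 88.6% of its UMIs in mature cells. The precursor-like and committed levels did not stand apart: precursor-like cells led in the vehicle library and committed cells in the FGF21 library. Sema3e, a class 3 semaphorin that binds Plxnd1 directly, led in precursor-like cells with 39.9 and 27.1 CPM, a mean 11.4 times that of microglia-like cells, the next class. Sema4f led there too with 13.7 and 16.1 CPM, 6.98 times the mean of the next class.

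Sema6a, a transmembrane ligand of A-class plexins, had the opposite order from Sema5a. It was at 335 and 444 CPM in mature oligodendrocyte-like cells, 173 and 202 CPM in precursor-like cells and 87.6 and 90.4 CPM in committed cells, so its lowest value in the lineage was in the middle class of both libraries. Sema6d was spread over pericyte-like (349 and 287 CPM), mature oligodendrocyte-like (255 and 242 CPM) and astrocyte-like cells (236 and 249 CPM), and these classes did not differ beyond their intervals in the FGF21 library. Sema4b led in astrocyte-like cells with 219 and 213 CPM, 2.78 times the mean of microglia-like cells, and its interval there lay above theirs in both libraries. Sema4a, a class 4 semaphorin known from immune cells, was at 106 and 153 CPM in astrocyte-like and at 92.0 and 118 CPM in border macrophage-like cells. Sema4c, a ligand of Plxnb2, was nearly level in pericyte-like (91.9 and 115 CPM) and microglia-like cells (102 and 95.4 CPM).

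Endothelial-like cells carried 3 semaphorins that were far lower in the other 7 classes. Sema7a, which is attached by a lipid anchor, was at 934 and 585 CPM there against 65.6 and 74.6 CPM in mature oligodendrocyte-like cells, the next class. Sema3c, a secreted ligand of neuropilin and plexin complexes, had 43 and 16 UMIs (705 and 312 CPM) there and 6 and 4 UMIs in precursor-like cells. Sema3g, a class 3 semaphorin known from arterial endothelium, had 4 UMIs in 2 vehicle cells (65.6 CPM) and 37 UMIs in 9 FGF21 cells (721 CPM). The FGF21 to vehicle ratios in this class were 11.0 (3.95 to 42.5) for Sema3g, 0.443 (0.233 to 0.802) for Sema3c and 0.626 (0.388 to 0.991) for Sema7a. With 33 and 16 cells the class is below the 50 cells per library set for comparisons, and these genes were singled out after their values were seen.

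The B-class plexins, receptors of class 4 semaphorins, each led in another class. Plxnb2, the member with the second most UMIs (6710), was at 403 CPM (387 to 420) and 386 CPM (369 to 402) in microglia-like cells, and at 214 and 293 CPM in pericyte-like cells. A UMI of Plxnb2 was found in 73.4% (71.0% to 75.7%) and 82.5% (79.8% to 84.95%) of microglia-like cells, and in 52.0% and 53.9% after thinning to 2000 UMIs. In erythroid-like cells, which should lack it, the shares were 13.0% (4.94% to 26.3%) and 10.0% (1.23% to 31.7%), and their median depths were 1989 and 2256 UMIs against 4180.5 and 6024 UMIs in microglia-like cells. Thinned, the erythroid-like shares were 17.4% and 18.2%, over the 23 vehicle and 11 FGF21 cells with at least 2000 UMIs. They are thus not from the same set of cells as the shares before thinning. Plxnb1, the receptor that binds Sema4d most tightly, was at 359 and 355 CPM in astrocyte-like, 207 and 242 CPM in pericyte-like and 26.5 and 43.6 CPM in microglia-like cells, and 84.6% of the last was background. Plxnb3, a receptor of Sema5a, led in committed oligodendrocyte precursor-like cells with 358 and 473 CPM, above mature cells at 152 and 132 CPM and precursor-like cells at 116 and 114 CPM in both libraries. Sema5a and Plxnb3 thus shared their leading class.

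The A-class plexins, which carry the signal of class 3 and class 6 semaphorins, were lower. Plxna4 led in microglia-like cells with 81.8 and 77.1 CPM, 2.07 times the mean of precursor-like cells. Its antisense RNA Plxna4os1 (GRCm38, chr6:32511073-32515576, plus strand, inside the span of Plxna4 on the minus strand) led in the same class with 31.3 and 27.3 CPM, 6.15 times the mean of the next. No label says whether counting used strand, so reads of this pair may not be told apart. Plxna2 was at 131 and 156 CPM in endothelial-like and 63.7 and 52.2 CPM in precursor-like cells, the former from 8 UMIs in each library. Plxna1 and Plxna3 had leads of 1.18-fold and 1.07-fold over the next class, within the counting intervals. Plxnc1, the receptor of Sema7a, led in precursor-like cells with 51.2 and 34.3 CPM and had 0 UMIs in the endothelial-like cells where Sema7a was highest. The intervals of these 0 UMIs reach up to 60.5 CPM (vehicle) and 71.9 CPM (FGF21). A level like that of precursor-like cells therefore cannot be told from absence there. Plxnd1 had 20 and 68 UMIs in precursor-like cells but led in border macrophage-like cells on 10 and 1 UMIs. Its 4 and 3 UMIs in endothelial-like cells (65.6 and 58.5 CPM) were too few to lead.

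The neuropilins, co-receptors of class 3 semaphorins and of vascular endothelial growth factor, had their highest mean levels in border macrophage-like cells, though not in each library. Nrp1 was at 177 and 275 CPM in border macrophage-like, 246 and 78.0 CPM in endothelial-like (15 and 4 UMIs) and 84.5 and 90.0 CPM in microglia-like cells. It was at 8.06 and 6.86 CPM in precursor-like cells, below the microglia-like level in both libraries, and its expected background there was above its whole level. Nrp2 was at 42.5 and 186 CPM in border macrophage-like, 64.9 and 49.96 CPM in microglia-like and 58.4 and 40.8 CPM in precursor-like cells. The order of the classes for both neuropilins differed between the libraries.

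Efnb3, a transmembrane ligand of EphB receptors and EphA4 and known in myelinating oligodendrocytes, showed the steepest class preference among the ephrins. It was at 1191 CPM (1069 to 1324) in the vehicle and 1178 CPM (1103 to 1256) in the FGF21 mature oligodendrocyte-like cells. Precursor-like cells had 65.7 and 84.7 CPM and committed cells 17.5 and 16.3 CPM, so the mature level was 15.7 times the mean of the next class. In committed cells the expected background of Efnb3 was above its whole level. A UMI of Efnb3 was found in 97.6% (87.1% to 99.9%) and 100% (95.6% to 100%) of mature oligodendrocyte-like cells, and in 86.8% and 86.2% when thinned. In microglia-like cells, where 2.84% (2.04% to 3.85%) and 9.03% (7.22% to 11.1%) of cells had a UMI of Efnb3, the expected background was above the whole level. Efnb2, an ephrin of arterial endothelium, led in precursor-like cells with 28.6 and 15.3 CPM, while its 7 and 2 UMIs in endothelial-like cells (115 and 39.0 CPM) were too few to lead. Efnb1 led in microglia-like cells with 31.5 and 33.3 CPM and was higher still in fibroblast-like and neuron-like cells, which are not among the classes described. Its 2 and 4 UMIs in endothelial-like cells (32.8 and 78.0 CPM) were too few to lead.

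The ephrin-A ligands were scarce. Efna2, with the most UMIs (466), was at 31.4 and 43.5 CPM in precursor-like and 30.0 and 34.1 CPM in committed cells, which did not differ beyond their intervals. Efna1 led in mature oligodendrocyte-like cells with 6.90 and 12.9 CPM. Its 2 and 1 UMIs in endothelial-like cells (32.8 and 19.5 CPM) were too few to lead. Efna3 stood at 3.63 and 2.94 CPM in precursor-like cells, and Efna4 and Efna5 stayed below 5 CPM in microglia-like cells, the class with most cells. For 7 members only 1 class had enough UMIs to lead, and among them were Efna3, Efna4 and Efna5, so the leading class of these says little beyond where UMIs were counted.

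Of the EphA receptors, Epha5 was the most counted (1255 UMIs). It led in precursor-like cells with 165 and 113 CPM, above astrocyte-like cells at 56.5 and 43.1 CPM in both libraries. Outside the 8 classes, neuron-like cells had 11 and 7 UMIs of Epha5 (219 and 66.6 CPM). In committed cells it was at 10.0 and 19.3 CPM, with 96.1% background. Epha4, which binds both ephrin classes, was instead highest in committed cells (133 and 127 CPM), with 25.4 and 30.8 CPM in precursor-like and 69.1 and 34.7 CPM in mature cells. In the FGF21 library endothelial-like cells led for Epha4 on 8 UMIs. Epha2, a receptor better known from epithelia, led in pericyte-like cells with 53.6 and 57.4 CPM against 18.2 and 10.5 CPM in microglia-like cells. Its pericyte-like interval lay above that of microglia-like cells in both libraries.

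Among the EphB receptors, Ephb1 was higher in each later lineage class: 27.0 and 37.3 CPM in precursor-like, 90.1 and 101 CPM in committed and 262 and 230 CPM in mature oligodendrocyte-like cells. Its ligand Efnb3 was highest in the same mature class. Ephb3, with the most UMIs of this family (1135), was close between astrocyte-like (71.3 and 116 CPM) and precursor-like cells (77.0 and 84.7 CPM), each leading in 1 library. Ephb6, which lacks kinase activity, led in precursor-like cells with 33.5 and 50.4 CPM. Ephb4, the receptor of venous endothelium, led in endothelial-like cells with 9 and 8 UMIs (148 and 156 CPM), 7.21 times the mean of pericyte-like cells.

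**Figure D2:**
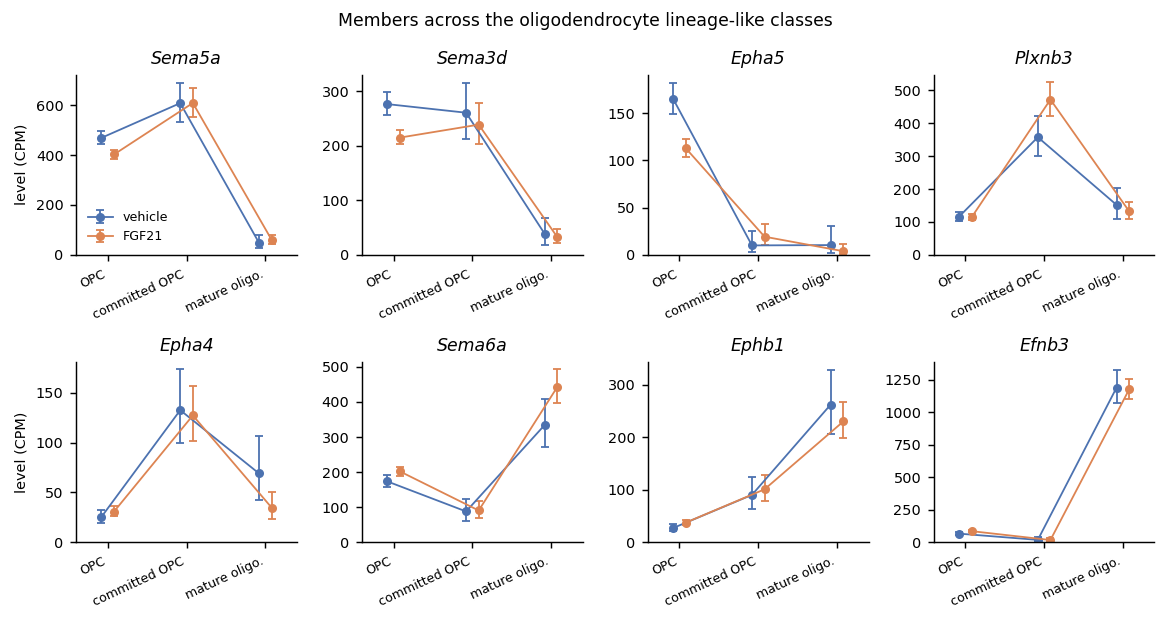
Level in CPM (vertical axis from 0) of 8 members in precursor-like (OPC), committed and mature oligodendrocyte-like cells, with exact 95% counting intervals, vehicle in blue and FGF21 in orange, and lines joining the classes of a library. Sema5a, Sema3d and Epha5 are low in mature cells, Plxnb3 and Epha4 are highest in committed cells, and Sema6a, Ephb1 and Efnb3 are highest in mature cells.

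The FGF21 library was set against the vehicle library in the 3 classes with at least 50 cells in each, counting a member as higher or lower when its CPM was at least 1.5-fold apart and it had at least 50 UMIs in the class. In microglia-like cells 34 members had enough UMIs. Of these, 12 were higher in the FGF21 library, where 12.2% of all 11358 genes were, and 1 was lower, where 5.17% of genes were. The median log2 ratio was 0.30 over these members and 0.03 over all genes, and it was 0.07 and -0.14 after the background was subtracted. With the background subtracted and members over 50% background left out, 0 were higher and 2 lower. In all 3 classes the subtracted UMIs were divided by the class totals before subtraction. No share over all genes was counted for that setting. With at most 10% mitochondrial UMIs per cell, 12 were higher and 2 lower.

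The 12 higher members in microglia-like cells were Efna2, Ephb1, Ephb6, Sema5b, Sema6a, Efnb3, Sema4a, Epha5, Sema6b, Plxnc1, Plxnb1 and Plxna3. None of them led in microglia-like cells. Efna2 was at 2.58 CPM (vehicle) and 8.33 CPM (FGF21), a ratio of 3.22 (1.77 to 6.22). Ephb1 was at 5.85 and 16.8 CPM, a ratio of 2.88 (1.92 to 4.39), and Sema6a at 17.0 and 42.0 CPM, a ratio of 2.46 (1.94 to 3.15). These are genes of the oligodendrocyte lineage in the level comparison. Ephb6 had a ratio of 2.48 (1.57 to 4.01), Sema5b of 2.47 (1.80 to 3.43) and Efnb3 of 2.13 (1.46 to 3.14). For all 12 the expected background was over 50% of their UMIs in microglia-like cells, from 53.1% for Sema4a to above the whole level for Efnb3. It uses the median share over all classes. In microglia-like cells precursor markers stood at 22.2% and 26.5% of their library average and mature oligodendrocyte markers at 19.4% and 23.8%. Astrocyte markers stood at 40.7% and 35.7% and pericyte markers at 29.5% and 38.2%. Other shares were not tried, so members near 50% may fall on either side. In the same cells the 9 precursor markers summed to 1046 CPM (vehicle) and 1875 CPM (FGF21), the 9 mature oligodendrocyte markers to 540 and 1237 CPM and the 9 astrocyte markers to 906 and 1379 CPM, with no marker at 0. The part of these other cells in the ratios was not tested.

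The 6 members with enough UMIs that led in microglia-like cells had ratios between 0.872 and 1.12, with no call in either direction. Plxnb2 and Sema4d, the most counted of them, are given with their levels above. By contrast, the 14 members led by oligodendrocyte lineage-like classes had a median ratio of 1.82 in microglia-like cells, with 10 higher. The lower member was Epha2, at 18.2 and 10.5 CPM, a ratio of 0.575 (0.410 to 0.7998) with 20.6% background. Epha2 led in pericyte-like cells, and the 9 pericyte markers summed to 722 and 360 CPM in microglia-like cells. Without Cspg4, which is also among the precursor markers, the sums were 620 and 169 CPM. Nrp2 was at 64.9 and 49.96 CPM there, a ratio of 0.770 (0.657 to 0.901), short of 1.5-fold.

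**Figure D3:**
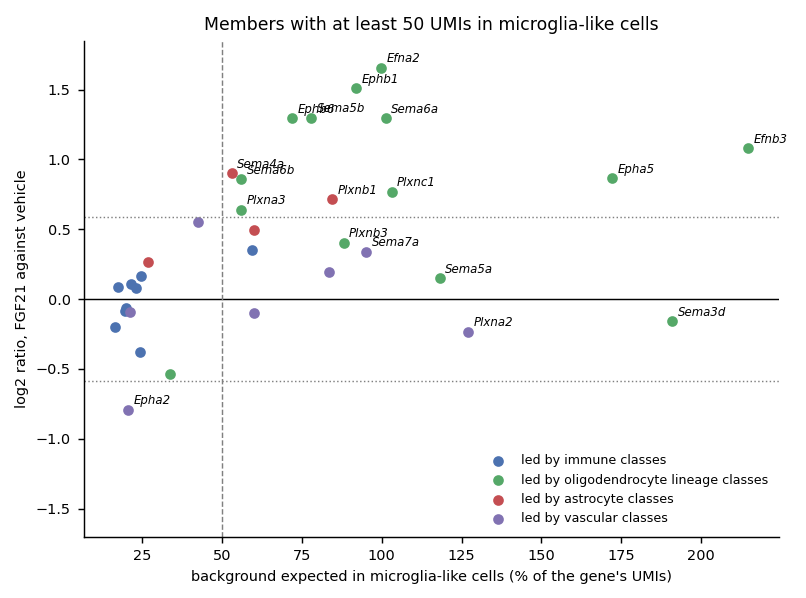
Expected background of each of the 34 members in microglia-like cells, in percent of its UMIs (horizontal axis), against its log2 ratio of the FGF21 to the vehicle library (vertical axis), coloured by leading class group, with dotted lines at 1.5-fold and a dashed line at 50%. The 12 members above the upper dotted line all sit to the right of 50%, and Epha2, the member below the lower line, sits at 20.6%.

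In oligodendrocyte precursor-like cells 36 members had enough UMIs. There 4 were higher in the FGF21 library, against 5.81% of all 11412 genes, and 2 were lower, against 4.83%. The median log2 ratio of the members was 0.21, that of all genes -0.01, and after subtraction it was 0.00 and -0.13. With the background subtracted and members over 50% background left out, 2 were higher and 6 lower, again without a share over all genes. The higher members were Sema4a at 9.67 and 20.8 CPM (ratio 2.15, 1.37 to 3.50, 53.4% background), Sema6b, Plxnd1 and Ephb6. Sema6b, a class 6 semaphorin that led in this class, was at 56.8 and 95.3 CPM, a ratio of 1.68 (1.39 to 2.04) with 18.1% background. Plxnd1 had 20 and 68 UMIs and a ratio of 1.65 (0.993 to 2.88), so its interval held 1. Ephb6 had a ratio of 1.51 (1.17 to 1.95), and 1.38 after subtraction. With at most 10% mitochondrial UMIs per cell 4 members were lower, and with median-ratio scaling, or with the highest cell of each library left out, 1 was.

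The lower members in precursor-like cells were Efnb2, an ephrin-B ligand, and Ephb2, an EphB receptor. The other ephrin-B and EphB members with enough UMIs had FGF21 levels above the vehicle levels. Vehicle first, these were 20.6 and 23.9 CPM for Efnb1, 65.7 and 84.7 CPM for Efnb3 and 27.0 and 37.3 CPM for Ephb1. Ephb3 was at 77.0 and 84.7 CPM and Ephb6 at 33.5 and 50.4 CPM. Efnb2 was at 28.6 CPM (vehicle) and 15.3 CPM (FGF21), a ratio of 0.535 (0.383 to 0.748). Ephb2 was at 23.4 and 15.5 CPM, a ratio of 0.663 (0.466 to 0.947). Background made up 20.2% and 17.0% of their UMIs. Members that led in this class or its committed neighbour and stayed within 1.5-fold included Epha5 (0.684, 0.601 to 0.778), Plxnc1 (0.671, 0.531 to 0.849), Sema3e (0.678, 0.520 to 0.887), Sema3d (0.778, 0.706 to 0.857) and Sema5a (0.858, 0.798 to 0.923), all with an interval below 1. In all, 9 members had an interval below 1 and 12 above it. These intervals leave out differences between the pools of mice. The cells of the libraries fell mostly into different precursor-like clusters, as given above.

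In astrocyte-like cells 18 members had enough UMIs. Of them 5 were higher in the FGF21 library, against 11.9% of all 6128 genes, and 0 were lower, against 8.14%. The median log2 ratio was 0.33 over the members and 0.00 over all genes, and 0.23 and -0.16 after subtraction, when 3 were higher and 1 lower among members with at most 50% background. With at most 10% mitochondrial UMIs per cell 2 were higher, and with a minimum of 20 UMIs 10 were. Sema5b had 4 vehicle UMIs and 54 FGF21 UMIs (9.83 and 44.8 CPM), a ratio of 4.56 (1.68 to 17.3) with 44.7% background. Its ratio was 7.52 with the background subtracted and 17.2 with the highest cell of each library left out. The 4 vehicle UMIs came from 2 cells, and the highest cell held 3 of them. Both ratios thus rest on very few vehicle UMIs. Plxna1, a receptor that pairs with neuropilins, was at 36.9 and 75.5 CPM, a ratio of 2.05 (1.18 to 3.81) with 23.5% background. Ephb3, the only one of the 5 that led in astrocyte-like cells, was at 71.3 and 116 CPM, a ratio of 1.63 (1.09 to 2.52) with 14.7% background. Sema6a (1.78, 1.07 to 3.13) and Sema6b (1.54, 0.736 to 3.60) had 51.3% and 51.1% background. Precursor markers summed to 2711 and 3606 CPM and mature oligodendrocyte markers to 612 and 1340 CPM in astrocyte-like cells, and their part in these ratios was not tested.

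**Figure D4:**
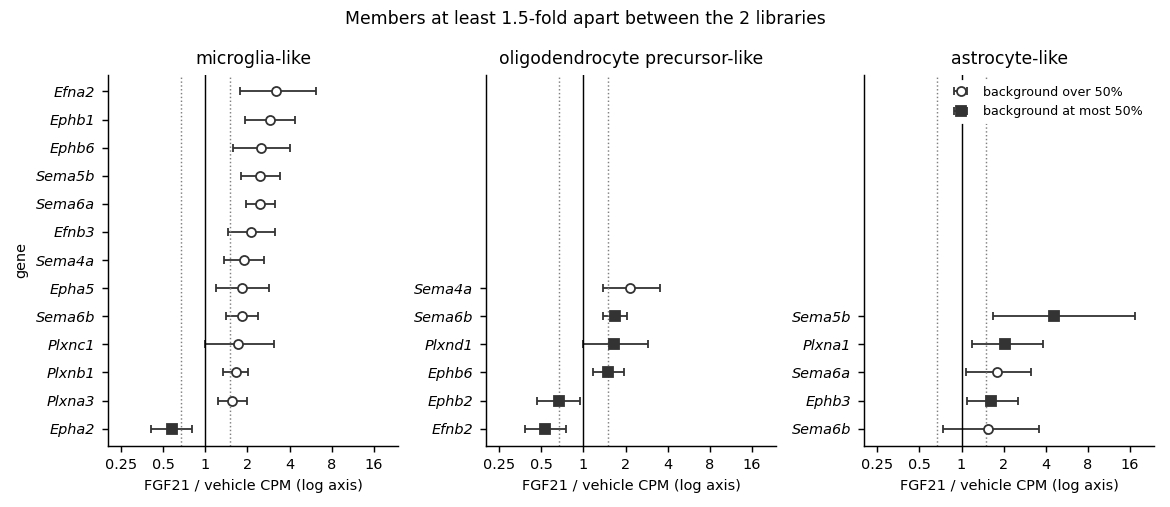
Ratio of FGF21 to vehicle CPM (log axis) with exact 95% counting intervals for each member at least 1.5-fold apart in each of the 3 compared classes, with open circles where background exceeds 50% of the UMIs and filled squares otherwise. All 12 higher members in microglia-like cells are open circles, and the lower members Epha2, Ephb2 and Efnb2 are filled squares.

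Genes that work with these ligands and receptors were counted in 4 lists. Of 19 co-receptors and binding partners of semaphorins and plexins, 13 had enough UMIs in microglia-like, 11 in precursor-like and 7 in astrocyte-like cells. In these classes 3, 0 and 0 were higher in the FGF21 library, where 12.2%, 5.81% and 11.9% of all genes were, and 1, 1 and 0 lower, where 5.17%, 4.83% and 8.14% of all genes were. The median log2 ratios were 0.17, -0.02 and 0.07, against 0.03, -0.01 and 0.00 over all genes. The higher ones in microglia-like cells were Chl1 (1.61), Sdc3 (1.54) and Cd72 (1.77), a receptor of Sema4d on immune cells with 19 and 32 UMIs, an interval of 0.974 to 3.31 and 19.3% background. The lower one in microglia-like and in precursor-like cells was the integrin Itga1, with ratios of 0.321 and 0.284 and a background above its whole level. Trem2 and Tyrobp, a myeloid pair known to act with Plxna1, a receptor of Sema6d, had the most UMIs of this list and were within 1.5-fold in each class.

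Of the 34 intracellular signalling genes of semaphorins and plexins, 28, 34 and 22 had enough UMIs in microglia-like, precursor-like and astrocyte-like cells, 4, 4 and 5 were higher (all genes 12.2%, 5.81% and 11.9%) and 0, 1 and 3 lower (all genes 5.17%, 4.83% and 8.14%). Their median log2 ratios were 0.12, 0.04 and 0.10. Cfl1, or cofilin, which severs actin filaments, was higher in each: 1269 and 2411 CPM in microglia-like cells (ratio 1.899, 1.846 to 1.95), 1379 and 2146 CPM in precursor-like cells (1.56, 1.498 to 1.62) and 971 and 1719 CPM in astrocyte-like cells (1.77, 1.59 to 1.98). Micall1 was higher in each as well, with ratios of 1.70, 1.92 and 1.94, the last with an interval of 0.907 to 4.76. Rac1 and Rhoa, small GTPases at the base of the pathway and next in UMIs, were within 1.5-fold in each class.

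Of the 31 intracellular genes of ephrin and Eph signalling, 25, 29 and 18 had enough UMIs, 2, 1 and 3 were higher (all genes 12.2%, 5.81% and 11.9%) and 1, 0 and 1 lower (all genes 5.17%, 4.83% and 8.14%). Their median log2 ratios were -0.0048, 0.07 and 0.19. Ngef, the exchange factor ephexin that acts below EphA receptors, was higher in precursor-like cells (9.67 and 20.8 CPM, ratio 2.15, 1.37 to 3.50) and in microglia-like cells (2.10, with 96.5% background). Fyn, Ptpn1 and Sdcbp, which had the most UMIs of this list, were within 1.5-fold in each class. Adam10, a protease that cuts ephrins, was lower in astrocyte-like cells (143 and 70.5 CPM, ratio 0.495, 0.350 to 0.703). Of 27 other guidance ligands and receptors, 15, 18 and 11 had enough UMIs, 6, 1 and 2 were higher (all genes 12.2%, 5.81% and 11.9%) and 1, 1 and 1 lower (all genes 5.17%, 4.83% and 8.14%). Their median log2 ratios were 0.54, -0.02 and 0.22. Of the most counted, Adgrl1 and Neo1 were within 1.5-fold in each class and Dscam was higher in microglia-like cells (1.52) with a background above its whole level. Adgrl2, a latrophilin that binds FLRT proteins, was lower in microglia-like cells at 62.0 and 38.6 CPM (0.622, 0.523 to 0.739) with 19.6% background, whereas the background of the 6 higher genes there was at least 72.4%. Robo1, the receptor of Slit ligands, was higher in astrocyte-like cells (1.84, 1.07 to 3.35).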

How the data were processed

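The deposited tables hold RSEC-corrected UMI counts for each cell, made by BD's Rhapsody WTA pipeline, version 1.9.1, per the file headers; the build was GRCm38, per the submitters' processing notes. Strand, annotation and cell calling were not given in the sources used here. Cells with at least 500 UMIs, 300 genes and at most 25% mitochondrial UMIs were kept, and Scrublet doublets (17 vehicle, 16 FGF21, 0.767% of cells) were removed. With scanpy 1.11.5, both libraries were clustered together (2000 variable genes without members, 30 components, 15 neighbours, Leiden resolution 1.0), giving 16 clusters, which were named from 18 marker lists. Class sums gave CPM with exact Poisson intervals, ratios with exact conditional-binomial intervals and shares with exact Clopper-Pearson intervals; 0.5 UMIs were added before log2. Depth was 11130580 UMIs (vehicle) and 14585503 UMIs (FGF21). Each treatment was 1 library, so no p-value was computed. The ratio step was tested on simulated counts with counting error only, which leaves out differences between cells, clusters and pools of mice. Named genes were the 5 highest members per class, up to 6 per direction at least 1.5-fold apart, the 3 most counted per family or list and those at the count minimum. The members and lists were chosen with earlier results of these data known, and the rule for leading classes and the background share were set after the data were seen. Alternatives covered cell filters, clustering, background, scaling and count minimums.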

Additional observations from a re-analysis of the deposited data

Results flagged for a closer look

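Epha5 went in opposite directions in 2 classes: its ratio of the FGF21 to the vehicle library was 1.83 (1.19 to 2.86) in microglia-like cells, on 35 and 61 UMIs, and 0.684 (0.601 to 0.778) in oligodendrocyte precursor-like cells, on 410 and 576 UMIs. The difference between the classes was not tested. In microglia-like cells the expected background was above the whole level of Epha5, and in precursor-like cells it was 11.8%.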

How the results depend on the processing

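No paired analysis was possible because each treatment is 1 library. The counts of members led by each class group stayed within 1.5 times of the values given under every alternative run, and 40 to 50 of 50 members kept their leading class (40 with a minimum of 20 UMIs to lead, an alternative chosen after seeing the data, and 43 in the vehicle library alone). The counts of members apart between libraries moved more. With at most 10% mitochondrial UMIs, 2 were lower in microglia-like, 4 lower in precursor-like and 2 higher in astrocyte-like cells. With background subtracted, where members over 50% background drop out by construction, microglia-like cells had 0 higher and 2 lower. Precursor-like cells had 2 higher and 6 lower, and astrocyte-like cells 3 higher and 1 lower. The median log2 ratios of the remaining members were -0.0853 in microglia-like and -0.0301 in precursor-like cells. Over all genes the subtracted medians were -0.137 and -0.131, and with all compared members kept 0.07 and 0.00. Class totals were not reduced in this setting. Only 1 member was lower in precursor-like cells with median-ratio scaling, and likewise with the highest cell left out. A minimum of 20 UMIs gave 10 higher in astrocyte-like cells and 1 of 100 UMIs gave 3, since other numbers of members enter. Other causes were not tested. All 218 recomputed ratios of named members kept their direction and stayed within their intervals. Changing the UMI minimum leaves a ratio itself unchanged, so the agreement in those settings was fixed in advance. Members over 50% background have no background-subtracted ratio among the 218. That leaves out every named higher member in microglia-like cells, so the effect of subtraction on their ratios was not tested. Thinned to 2000 UMIs per cell, the shares of cells with a UMI were lower for Plxnb2 and Sema4d in microglia-like, Sema5a in precursor-like, Efnb3 in mature oligodendrocyte-like and Plxnb1 in astrocyte-like cells, in both libraries. Ratios of classes with under 50 cells and members below 5 CPM are limited by depth.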

Other observations

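Some members were higher outside the 8 classes described, in classes of few cells. Fibroblast-like cells (19 vehicle and 9 FGF21 cells) had Epha3 at 231 and 102 CPM from 16 and 4 UMIs, and Epha7 at 144 and 102 CPM from 10 and 4 UMIs, with background of 0.462% and 1.10% of these UMIs. Both receptors were below 20 CPM in each library in precursor-like cells. Neuron-like cells (18 and 20 cells) had Plxna2 at 497 and 171 CPM from 25 and 18 UMIs. In choroid plexus-like cells (28 and 16 cells) Sema3b had 3 and 7 UMIs, or 14.3 and 45.9 CPM.

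Barcodes left out by the filters, 588 of vehicle and 520 of FGF21, held 674 and 719 UMIs of the members, or 1230 and 1437 CPM, against 2041 and 2419 CPM in the used cells. No member had an FGF21 interval above that of the vehicle library in these barcodes.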
